A study of Homo sapiens with 4 samples.

Results

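Sterol regulatory element-binding proteins (SREBPs) are transcription factors that switch on the enzymes of fatty acid and cholesterol synthesis. The rule took the rows of the deposited table whose gene name was on a list of 33 genes, out of 55536 genes in the table. The list holds 5 regulators, 9 genes of the fatty acid arm and 19 genes of the cholesterol arm. All 33 names matched 1 row each, and 32 of the 33 genes passed the filter on low counts and were tested. NSDHL was the exception.

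The cells were HaCaT, an established line of immortalised human keratinocytes, which are the main cells of the epidermis. There were 2 libraries labelled NC and 2 labelled TYMP overexpression, the latter from cells that received a lentivirus carrying TYMP, which encodes thymidine phosphorylase. What NC stands for is not in the labels, nor whether the NC cells received a virus, which promoter drove TYMP, or if the lines were clones. RNA was harvested after 48 hours in both groups, and polyadenylated RNA was sequenced.

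The 4 libraries held between 16209663 and 17000821 reads counted to genes. TYMP was higher in both libraries labelled for it, at 75.8 and 64.8 CPM (counts scaled to library size and composition), than in the NC libraries, at 16.7 and 15.9 CPM. Pairs of values are given here in the order replicate 1, replicate 2. Mitochondrially encoded genes took 4.25% and 4.24% of the reads in the NC libraries, against 5.09% and 4.46% in the TYMP libraries. The labels do not say whether replicates came from separate cultures. The p-values set the group difference against a spread between these libraries, shared in part across genes. That spread may be technical.

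SREBPs are made as inactive precursors in the membrane of the endoplasmic reticulum. When sterols are low, the escort protein SCAP carries them to the Golgi, where proteases free the active fragment. When sterols are abundant, INSIG proteins hold SCAP and the precursor back. SREBP1, from SREBF1, is known mainly for fatty acid genes, and SREBP2, from SREBF2, mainly for cholesterol genes. In the epidermis both kinds of lipid, with ceramides, build the water barrier. RNA levels do not measure SREBP processing or lipid content, neither of which was measured here.

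SREBF1, INSIG1, SCD and FADS1 rose in the TYMP libraries, between 1.28-fold and 1.48-fold. None of the 18 tested genes of the cholesterol arm passed the test, and no gene of any of the 3 groups passed it as lower. In all, 4 of 32 tested genes (12.5%) rose by the edgeR quasi-likelihood test (Benjamini-Hochberg adjusted p under 0.05), where 2.09% of all 14380 tested genes rose and 1.23% fell. DESeq2 and limma-voom each called the same 4 genes higher, where they called 1.91% and 1.8% of all tested genes higher.

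**Figure D1:**
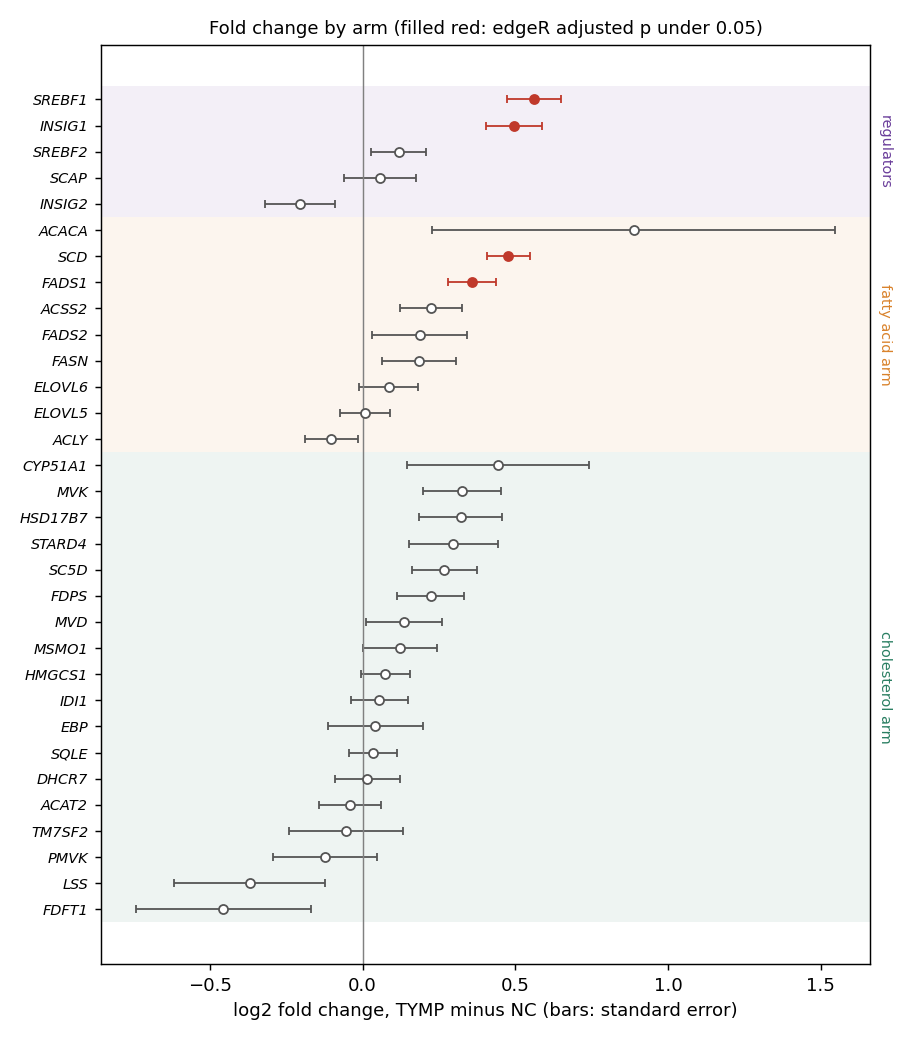
Log2 fold change (TYMP minus NC, horizontal axis) of the 32 tested genes, grouped by role, with standard errors as bars. Filled red points are the 4 genes past an edgeR adjusted p of 0.05. They are SREBF1 and INSIG1 among the regulators and SCD and FADS1 in the fatty acid arm, and no point of the cholesterol arm is filled.

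Among the regulators, SREBF1 encodes the SREBP of the fatty acid genes. It lies on chromosome 17 between 17810399 and 17837002 (GRCh38, minus strand). It had 128 and 122 CPM in the NC libraries and 195 and 173 CPM in the TYMP libraries. Both TYMP libraries lay above both NC libraries, and the gap between the groups was larger than the gap within either. The group mean went from 125 ± 4.43 to 184 ± 15.4 CPM (± SD, n = 2 each), a 1.48-fold rise (log2 fold change 0.56 ± 0.089 SE, edgeR adjusted p = 0.00293). The counts are per gene, so the SREBP1a and SREBP1c transcripts, which start at different promoters, were not separated. Of the exon bases of SREBF1, 6.92% are shared with exons of RAI1 on the opposite strand, and reads from such bases cannot be told apart here.

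INSIG1 encodes a protein that retains SCAP and is itself a known SREBP target. It lies on chromosome 7 between 155297776 and 155310235. It had 69.0 and 72.9 CPM in the NC libraries against 98.4 and 102 CPM in the TYMP libraries, with no overlap. Its group mean went from 70.9 ± 2.77 to 99.96 ± 2.24 CPM (± SD, n = 2 each), a 1.41-fold rise (log2 fold change 0.50 ± 0.091 SE, edgeR adjusted p = 0.00834). Without TYMP replicate 2 its adjusted p was 0.0557, at a log2 fold change of 0.47.

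The other 3 regulators did not pass the test. SREBF2, which encodes the SREBP of the cholesterol genes, had 221 and 195 CPM in the NC libraries and 236 and 216 CPM in the TYMP libraries, so the groups overlapped (log2 fold change 0.12 ± 0.090 SE, edgeR adjusted p = 0.617). INSIG2, the second INSIG protein, had 37.3 and 39.8 CPM against 32.1 and 34.8 CPM. Its log2 fold change was -0.20 ± 0.11 SE (edgeR adjusted p = 0.455), with both TYMP libraries below both NC libraries, as held for 21.8% of all tested genes. SCAP, the escort, lay between 44.6 and 53.4 CPM in all 4 libraries, and its groups overlapped.

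The balance within each pair of related regulators was also taken per library from FPKM, the authors' values scaled to gene length and to the reads of a library. The ratio of SREBF1 to SREBF2 was 0.566 and 0.611 in the NC libraries, against 0.811 and 0.787 in the TYMP libraries. The ratio of INSIG1 to INSIG2 was 2.00 and 1.98 against 3.32 and 3.16. SREBF1 and INSIG1 were already called on their own, so the ratios are not results separate from those calls. Neither ratio overlapped between the groups. An exact permutation test gave p = 0.333 for each (two-sided), which is the smallest p that this test can give with 2 libraries against 2.

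In the fatty acid arm, SCD encodes stearoyl-CoA desaturase, which puts the first double bond into saturated fatty acids. It lies on chromosome 10 between 100347124 and 100364834. It had 1459.8 and 1487 CPM in the NC libraries and 2040.2 and 2064 CPM in the TYMP libraries. The 2 libraries of each group lay close together and the groups were far apart. The group mean of SCD went from 1473 ± 19.3 to 2052 ± 16.5 CPM (± SD, n = 2 each), a 1.39-fold rise (log2 fold change 0.48 ± 0.071 SE, edgeR adjusted p = 0.00196).

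SCD was also the most abundant of the 33 genes per length, at 279 ± 5.25 FPKM in the NC libraries, and ranked 52 in the table by mean FPKM. It took 53.4% and 56.5% of the summed FPKM of the fatty acid arm in the NC libraries, against 60.7% and 63.1% in the TYMP libraries. The summed FPKM of the arm was 516 and 500.3 against 637 and 633. Without SCD the sum was 240.4 and 218 against 250.3 and 234, and the groups then overlapped. The summed FPKM of the cholesterol arm was 287 and 282 against 299.98 and 305, higher in both TYMP libraries and without overlap.

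FADS1, on chromosome 11 between 61799625 and 61829318, encodes the delta-5 desaturase of polyunsaturated fatty acids. It had 205 and 208 CPM in the NC libraries against 263 and 267 CPM in the TYMP libraries, with no overlap. Its group mean went from 207 ± 1.79 to 265 ± 2.59 CPM (± SD, n = 2 each), a 1.28-fold rise (log2 fold change 0.36 ± 0.078 SE, edgeR adjusted p = 0.0228). Of the 4 calls, this one held under the fewest of the alternatives run. It was lost without TYMP replicate 1 (adjusted p = 0.101), without TYMP replicate 2 (adjusted p = 0.157) and on FPKM (limma adjusted p = 0.0813 and 0.0832 with pseudocounts of 1 and 0.1), while the log2 fold change stayed between 0.35 and 0.38. Its neighbour FADS2, the delta-6 desaturase, shares some exon bases with FADS1 on the opposite strand and had 11.2 and 11.7 CPM against 13.7 and 12.4 CPM (edgeR adjusted p = 0.658).

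The other genes of the arm run from the supply of acetyl-CoA to elongation, and none passed the test. ACSS2, which makes acetyl-CoA from acetate, had 62.8 and 57.4 CPM in the NC libraries and 73.6 and 66.9 CPM in the TYMP libraries (log2 fold change 0.22 ± 0.10 SE, edgeR adjusted p = 0.336). FASN, the synthase that builds palmitate, had 594 and 466 CPM against 664 and 540 CPM (log2 fold change 0.18 ± 0.12 SE, edgeR adjusted p = 0.553). The groups of FASN overlapped, since NC replicate 1 lay above TYMP replicate 2, and without NC replicate 1 FASN was called (log2 fold change 0.37, adjusted p = 0.00653). ACLY, which makes acetyl-CoA from citrate, was the only gene of the arm with a log2 fold change below 0, at -0.10 ± 0.087 SE.

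The elongases ELOVL5 and ELOVL6 had log2 fold changes of 0.0075 and 0.085, each with standard errors under 0.1. ACACA, whose product acetyl-CoA carboxylase commits acetyl-CoA to fatty acid synthesis, had only 152 and 113 reads in the NC pair and 123 and 368 in the TYMP pair. TYMP replicate 2 stood apart from the other 3 libraries. The log2 fold change of ACACA was 0.89 ± 0.66 SE (edgeR adjusted p = 0.680), but 1.45 (adjusted p = 1.81e-08) without TYMP replicate 1 and -0.056 (adjusted p = 0.981) without TYMP replicate 2. GENCODE also names ACACA, and LSS of the cholesterol arm, on sequences that lie beyond the primary assembly. No source used here gives the authors' treatment of reads with several matches.

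**Figure D2:**
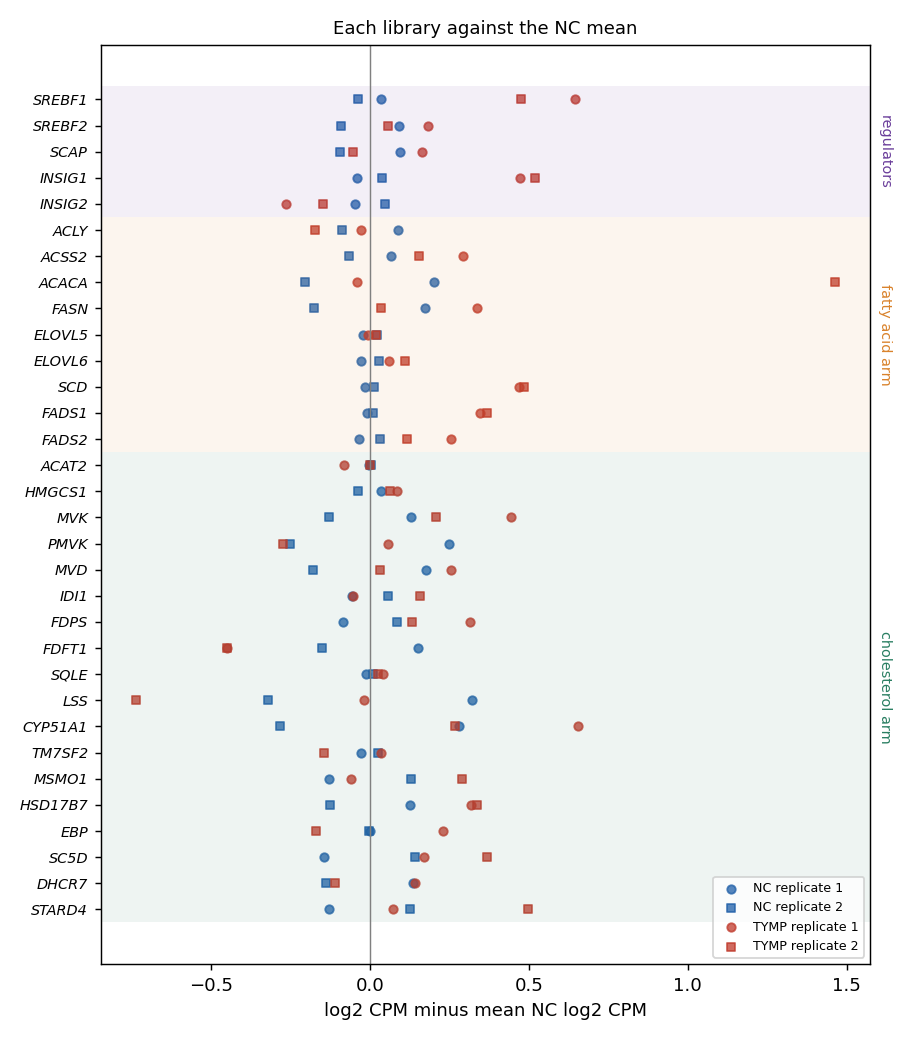
Log2 CPM of each gene in each library minus the mean of the 2 NC libraries (horizontal axis), with NC in blue and TYMP in red, and replicate 1 as circles and replicate 2 as squares. SREBF1, INSIG1, SCD and FADS1 show both TYMP libraries far to the right of a tight NC pair. In the cholesterol arm the groups overlap for 11 of 18 tested genes, beside 8109 of all 14380 tested genes. ACACA has a single distant TYMP library.

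The promoters of the 4 genes that rose are shown because these were the genes past the test. SREBPs act through short promoter elements. Whether the 4 genes share a regulator was not tested. Each runs from 250 bases before to 50 bases after a RefSeq start (GRCh38.p14), 5′ to 3′ on the strand of the gene. Capitals mark every match, on either strand, to CCAAT (bound by NF-Y, a partner of SREBPs), GGGCGG (bound by Sp1) and TCACGTGA (a palindromic E-box that SREBPs can bind).
SCD, chr10:100346983-100347282, plus strand: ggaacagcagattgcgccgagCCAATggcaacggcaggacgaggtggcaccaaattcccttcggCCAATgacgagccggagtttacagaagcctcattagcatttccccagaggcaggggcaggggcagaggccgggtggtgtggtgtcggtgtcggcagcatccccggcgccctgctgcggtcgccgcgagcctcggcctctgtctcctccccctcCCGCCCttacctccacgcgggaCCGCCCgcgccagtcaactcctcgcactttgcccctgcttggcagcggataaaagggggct
SREBF1, chr17:17836937-17837236, minus strand: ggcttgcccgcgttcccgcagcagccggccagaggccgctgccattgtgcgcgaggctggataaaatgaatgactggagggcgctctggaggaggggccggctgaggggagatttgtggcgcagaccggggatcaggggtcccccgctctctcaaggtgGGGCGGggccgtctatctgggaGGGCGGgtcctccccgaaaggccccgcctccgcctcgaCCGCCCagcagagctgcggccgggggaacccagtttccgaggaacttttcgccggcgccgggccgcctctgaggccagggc
INSIG1, chr7:155297628-155297927, plus strand: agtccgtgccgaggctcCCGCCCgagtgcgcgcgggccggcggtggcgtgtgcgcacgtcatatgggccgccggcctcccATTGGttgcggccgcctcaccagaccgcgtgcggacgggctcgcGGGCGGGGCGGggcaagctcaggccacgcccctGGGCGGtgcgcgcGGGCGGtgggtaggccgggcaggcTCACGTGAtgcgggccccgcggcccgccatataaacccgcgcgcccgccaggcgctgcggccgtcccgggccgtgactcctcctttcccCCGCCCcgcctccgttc
FADS1, chr11:61816954-61817253, minus strand: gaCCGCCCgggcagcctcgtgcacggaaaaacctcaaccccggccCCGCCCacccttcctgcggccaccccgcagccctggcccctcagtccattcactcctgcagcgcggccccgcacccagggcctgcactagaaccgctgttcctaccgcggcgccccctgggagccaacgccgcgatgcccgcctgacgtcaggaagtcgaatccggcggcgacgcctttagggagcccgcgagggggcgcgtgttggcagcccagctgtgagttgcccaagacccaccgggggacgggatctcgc

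The SCD promoter held CCAAT at 229 and 186 bases before the start. The INSIG1 promoter held CCAAT in reverse at 170 bases and TCACGTGA at 56 bases before the start, and it had 6 matches to GGGCGG, of which 2 share a base. The SREBF1 and FADS1 windows held matches to GGGCGG only. Each window surrounds a single start, so any other promoter of SREBF1 or of the other genes is not shown. The FADS1 window lies within the annotated gene, whose 5′ end on the minus strand is at 61829318. Of the 33 genes, 29 had at least 1 promoter in the RefSeq table, with 40 promoters in all. CCAAT was in 65.0% of these 40 promoters and in 34.6% of all 35116 promoters in the table. GGGCGG was in 87.5% against 45.0%. TCACGTGA was in 1 of the 40, that of INSIG1, and in 0.980% of all. TCACNCCAC, the core of a sterol regulatory element, was in 1 of the 40, that of SREBF2, and in 1.13% of all. By gene, CCAAT was found in 6 of 8 genes of the fatty acid arm and in 14 of 16 of the cholesterol arm. These are matches of letters in 300 bases, and binding was not measured.

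The cholesterol arm begins with ACAT2, which joins acetyl-CoA units, and HMGCS1, which makes HMG-CoA. The groups overlapped for ACAT2, at 55.9 and 56.2 CPM in the NC libraries and 52.9 and 56.0 CPM in the TYMP libraries. HMGCS1 had 176 and 167 CPM against 182 and 179 CPM, a log2 fold change of 0.074 ± 0.081 SE (edgeR adjusted p = 0.752). MVK, which phosphorylates mevalonate, had the smallest p of the arm. It had 40.3 and 33.7 CPM in the NC libraries and 50.2 and 42.6 CPM in the TYMP libraries (log2 fold change 0.33 ± 0.13 SE, edgeR adjusted p = 0.238). The lower TYMP library lay just above the higher NC library.

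PMVK and MVD, the next kinase and the decarboxylase, overlapped between groups, and the replicates of each differed by more than the groups did. PMVK had 28.7 and 20.3 CPM against 25.1 and 20.0 CPM, and MVD had 78.5 and 61.4 CPM against 82.9 and 71.0 CPM. IDI1, the isomerase of the isoprene unit, had 141 and 153 CPM against 141 and 164 CPM. FDPS, which makes farnesyl diphosphate, had 52.2 and 58.8 CPM against 69.0 and 60.8 CPM (log2 fold change 0.22 ± 0.11 SE, edgeR adjusted p = 0.375). Its TYMP libraries lay above the NC libraries by less than the spread within the TYMP group.

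The steps that commit the pathway to sterols follow. SQLE, the squalene epoxidase that limits the rate of the later pathway, was the most abundant gene of the arm per length, at 42.4 ± 0.672 FPKM in the NC libraries. It had 183 and 185 CPM in the NC libraries and 189 and 188 CPM in the TYMP libraries, a log2 fold change of 0.034 ± 0.079 SE (edgeR adjusted p = 0.903). FDFT1, the squalene synthase just before it, had only 60 and 48 reads against 38 and 40, and its log2 fold change was -0.46 ± 0.29 SE (edgeR adjusted p = 0.524). LSS, which closes squalene epoxide into lanosterol, had 253 and 160 reads against 192 and 123. Its groups overlapped (edgeR adjusted p = 0.563), but without NC replicate 2 it was called lower (log2 fold change -0.65, adjusted p = 0.0372).

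Of the enzymes that turn lanosterol into cholesterol, SC5D, the C5 desaturase, had 118 and 144 CPM in the NC libraries and 147 and 169 CPM in the TYMP libraries. Its log2 fold change was 0.27 ± 0.11 SE (edgeR adjusted p = 0.244), and it was called without NC replicate 2 (log2 fold change 0.42, adjusted p = 0.00649). HSD17B7, a ketoreductase, had 20.7 and 17.4 CPM against 23.6 and 24.0 CPM (log2 fold change 0.32 ± 0.14 SE, edgeR adjusted p = 0.286). MSMO1, EBP, TM7SF2 and DHCR7, which act on the methyl groups and double bonds of the sterol rings, had log2 fold changes between -0.053 and 0.12, with overlapping groups. CYP51A1, the lanosterol demethylase, had the highest log2 fold change of the arm, at 0.44 ± 0.30 SE (edgeR adjusted p = 0.564), with overlapping groups. It had 3.21 and 2.17 CPM against 4.16 and 3.18 CPM, from between 36 and 67 reads per library. Of its annotated exon bases, 83.2% are shared with other genes, some of them on its own strand. STARD4, which carries cholesterol between membranes, had 32.7 and 39.0 CPM against 37.6 and 50.5 CPM (edgeR adjusted p = 0.378).

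NSDHL, the sterol dehydrogenase that works with MSMO1, had 0 reads in every library. A count of 0 allows up to 3 reads, which is between 0.176 and 0.185 CPM in these libraries, for counting error only. Its level was not detectable in this table, which does not show that the gene was not expressed. Counts of ACAT2 are also uncertain, since 52.3% of its exon bases are shared with genes on the opposite strand. HSD17B7 and FDPS have pseudogene copies, so their counts may be split or shared with these. The kit named in the labels is not described as strand-specific.

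**Figure D3:**
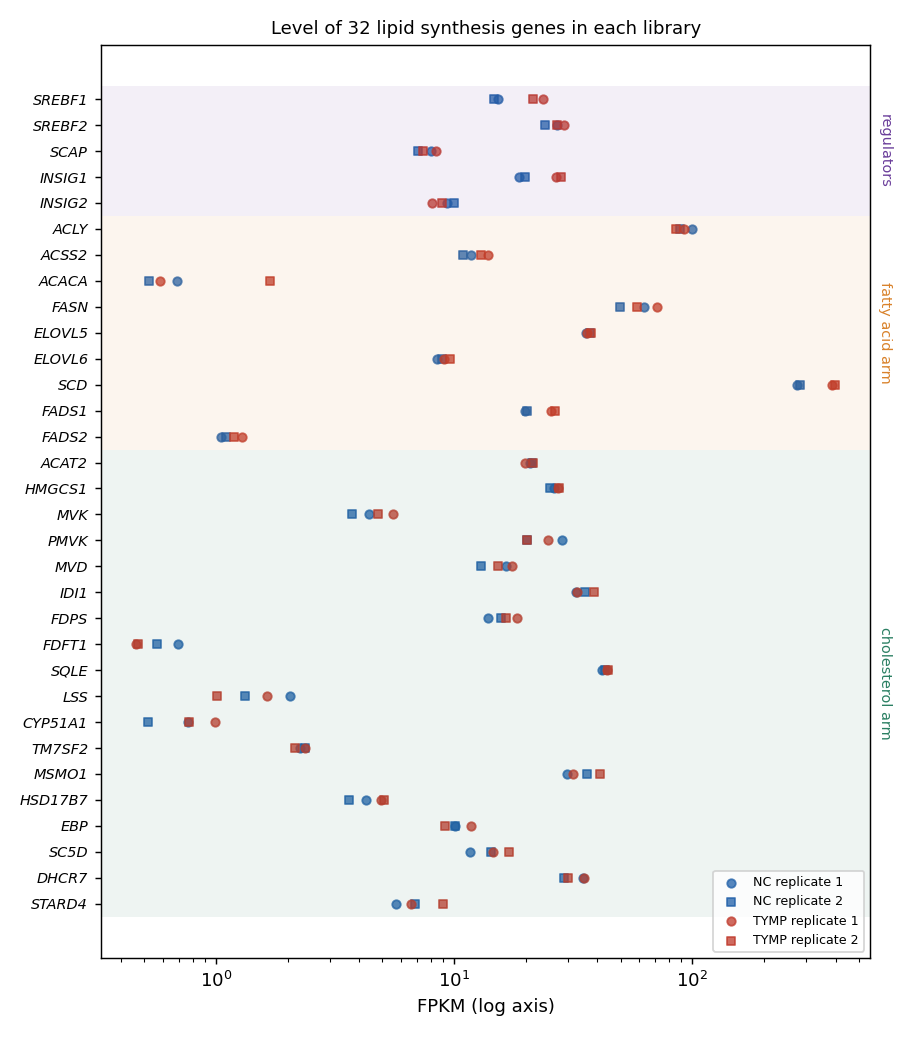
FPKM (log axis) of the 32 genes with reads, in each of the 4 libraries, in the order of the regulators and of the pathway steps. SCD is the highest of all in every library, SQLE leads the cholesterol arm by its mean, and ACACA, FADS2, FDFT1, LSS, CYP51A1 and TM7SF2 lie below 3 FPKM.

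Set side by side, 2 of the 9 genes of the fatty acid arm rose (22.2%) and 0 of the 18 tested genes of the cholesterol arm did, beside 2.09% of all tested genes. At an unadjusted edgeR p under 0.05 the counts were 3 of 9 and 3 of 18, all higher, beside 8.05% of all tested genes. DESeq2 and limma-voom each called 2 genes of the fatty acid arm and 0 of the cholesterol arm. A gene that was not called may still have changed. In the cholesterol arm, MVK (log2 fold change 0.33 ± 0.13 SE) and HSD17B7 (0.32 ± 0.14 SE) came near FADS1 (0.36 ± 0.078 SE). Both had fewer reads than FADS1 and larger standard errors. Of the 18 log2 fold changes, 5 were below 0. Without NC replicate 1 the cholesterol arm had 1 call (MVK), and without NC replicate 2 it had 2 (SC5D higher and LSS lower). The fatty acid arm had 1 call, SCD, without TYMP replicate 2 and on FPKM with either pseudocount. The difference between the arms themselves was not tested, since the genes were chosen with earlier results known.

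The median log2 fold change was 0.19 over the fatty acid arm, 0.064 over the cholesterol arm and 0.12 over the 5 regulators, beside -0.0051 over all tested genes. Log2 fold changes were above 0 for 8 of 9 genes of the fatty acid arm, 13 of 18 of the cholesterol arm and 49.1% of all tested genes. Both TYMP libraries lay above both NC libraries for 5 of 9 and 6 of 18 genes, beside 21.8% of all tested genes. Taken per library against the NC mean, the median of the fatty acid arm was -0.0089 and 0.0089 in the NC libraries, against 0.25 and 0.12 in the TYMP libraries, on the log2 scale. The median of the cholesterol arm was 0.019 and -0.019 against 0.080 and 0.048. The NC values mirror each other around 0 because the mean of the 2 NC libraries was subtracted for each gene. The gap between the medians of the arms was -0.027 and 0.027 in the NC libraries. It was 0.17 in TYMP replicate 1 and 0.071 in TYMP replicate 2, so the 2 TYMP libraries differed in its size.

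The genes around the pathway were read from lists written for this comparison. Of 10 tested genes that cleave SREBPs or degrade INSIG and the rate-limiting reductase, 0 passed the edgeR test, with 0 at an unadjusted p under 0.05 and a median log2 fold change of -0.0054. ERLIN1, a scaffold of that degradation, had the smallest p (log2 fold change -0.18 ± 0.086 SE, adjusted p = 0.365). Of 19 other tested SREBP target genes, 0 passed and 4 were higher at an unadjusted p under 0.05, beside 8.05% of all tested genes, with a median log2 fold change of 0.029. DESeq2 and limma-voom called 0 genes of either list.

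Of 9 tested targets of liver X receptors (LXR) and sterol efflux genes, 0 rose and 1 fell in edgeR, DESeq2 and limma-voom alike, where edgeR called 2.09% of all tested genes higher and 1.23% lower. The median of that list was 0.14, and 7 of its 9 log2 fold changes were above 0, beside 49.1% of all tested genes. Both TYMP libraries lay above both NC libraries for 5 of the 9, as in the fatty acid arm, beside 21.8% of all tested genes. LXR are the sterol-sensing nuclear receptors that are known to raise SREBF1 transcription. Of 13 genes of sterol storage and transport, 0 passed edgeR and 1 was higher at an unadjusted p under 0.05, which was GRAMD1C, a sterol transfer protein (adjusted p = 0.203). Of 12 genes of the isoprenoid branch, which leaves the pathway at farnesyl diphosphate, 0 passed edgeR with 0 at an unadjusted p under 0.05. The protease ZMPSTE24 had the smallest p (adjusted p = 0.574), and 9 of the 12 log2 fold changes were below 0.

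Fatty acid oxidation, which burns what the fatty acid arm makes, had 0 of 15 tested genes past the edgeR test and 2 higher at an unadjusted p under 0.05, beside the same 8.05%. Of its log2 fold changes, 14 of 15 were above 0, with a median of 0.15, which is near the 0.19 of the fatty acid arm. For 9 of the 15, both TYMP libraries lay above both NC libraries, beside 21.8% of all tested genes. HADHB, the beta subunit of the mitochondrial trifunctional protein, had the smallest p (log2 fold change 0.22 ± 0.085 SE, adjusted p = 0.234). Of 18 tested genes of epidermal ceramides and very long chain lipids, 0 passed edgeR, with 4 higher and 1 lower at an unadjusted p under 0.05, beside 14.7% of all tested genes in either direction. CERS3, the ceramide synthase of the skin barrier, came nearest, with 6.37 and 7.61 CPM in the NC libraries and 11.2 and 11.6 CPM in the TYMP libraries (1.63-fold, edgeR adjusted p = 0.0529). For these 4 lists DESeq2 and limma-voom also called 0 genes.

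Markers of cell types were read beside these results. All 10 keratinocyte markers had reads, and 7 of the 10 rose in the TYMP libraries, beside 2.09% of all tested genes, with a summed level of 9045 and 8279 CPM in the NC libraries and 12206 and 11804 CPM in the TYMP libraries. Of 6 markers of sebocytes, the lipid-making cells of the skin glands, AWAT1 and MC5R had 0 reads in every library. Of that list 2 genes were tested and 4 were not. The mucin gene MUC1 rose (log2 fold change 0.85), beside the same 2.09% of all tested genes. The other tested gene had a log2 fold change of -0.19, with both TYMP libraries below both NC libraries, as held for 21.8% of all tested genes. The summed level of the 6 markers was 36.1 and 37.8 CPM against 44.0 and 42.0 CPM. Of 5 adipocyte markers, ADIPOQ and LPL had 0 reads, and the sum lay between 0.0617 and 0.421 CPM. Summed fibroblast markers lay between 4.27 and 8.82 CPM, higher in both TYMP libraries, with PDGFRA and COL3A1 at 0 reads. Leukocyte markers lay between 0.353 and 1.49 CPM and endothelial markers between 2.59 and 3.76 CPM. The part of the keratinocyte markers in the lipid results was not tested, and in bulk RNA a change in the share of cells and a change in RNA per cell cannot be told apart.

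**Figure D4:**
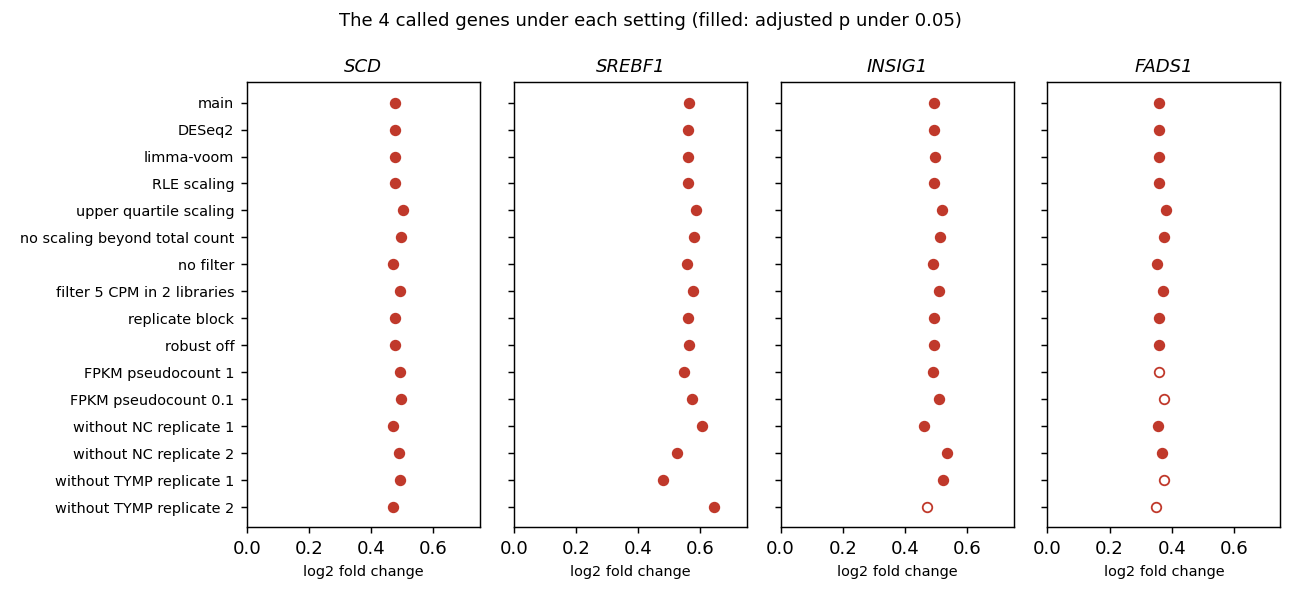
Log2 fold change of the 4 genes that rose (horizontal axes) under the main analysis and 15 alternatives (vertical axis). Filled points have an adjusted p under 0.05. SCD and SREBF1 are filled throughout, INSIG1 is open in 1 alternative and FADS1 is open in 4.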

How the data were processed

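RNA from 2 NC and 2 TYMP libraries of HaCaT cells was compared. Libraries were made with the NEBNext Ultra kit from 1.5 µg of RNA each, per the labels' protocols. The authors deposited 1 table with read counts, not normalized, and FPKM for each gene. HISAT2, HTSeq 0.13.5 and GRCh38 are named in the submitters' processing notes without their roles. The sources used here give neither the annotation release nor the strand setting nor the treatment of multiply matching reads.

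Counts were tested with the edgeR 4.0.16 quasi-likelihood test in R 4.3.3 (filterByExpr, TMM, robust, group as the only term), with Benjamini-Hochberg adjustment over all 14380 tested genes. Each SE is the size of the log2 fold change divided by the square root of the test's F statistic. That statistic rests on a spread moderated across genes. CPM are TMM-scaled, except sums over markers. Alternatives were DESeq2 1.42.0, limma-voom (limma 3.58.1), other scalings and filters, the replicate block, each library left out, and limma on log2 FPKM. FPKM from the authors served for levels and ratios between genes. The procedure was tested on simulated data, with planted changes larger than the rises of SREBF1, INSIG1, SCD and FADS1. These were set only in genes above a floor of mean reads. The simulation does not show how often smaller changes, or changes in genes with few reads, would be found. Replicates were not duplicates (chi-square per degree of freedom 7.39 for NC and 5.84 for TYMP). Gene positions came from GENCODE 29 on GRCh38 and promoters from RefSeq. Intervals and limits for a count of 0 cover counting error only.

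The genes and lists were chosen with earlier results of these data known. All 33 genes are accounted for. By rule, those past the threshold were described in full, with the smallest p added up to 4 per group. From the other lists, called genes, or 1 with the smallest p, could be named. Other members, and MUC1, are given by their values. The result of 1 single gene is not reported here.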

Additional observations from a re-analysis of the deposited data

How the results depend on the processing

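SCD and SREBF1 were called under all 15 alternatives, INSIG1 under 14 and FADS1 under 11, and none of the 4 changed direction. With no filter 732 genes were called, 288 of them lower, and limma on log2 FPKM called 165 (112 higher, 53 lower) and 170 (115 higher, 55 lower) with pseudocounts of 1 and 0.1, each with 1 gene of the fatty acid arm (SCD). The numbers pair only 2 replicates per group and no label says that they mark a batch. The differences between replicates 1 and 2 correlated between groups at 0.118 over all tested genes and 0.299 over the 32. With the replicate block, 2024 genes were called (980 higher, 1044 lower) and 9 of the 32, all higher (4 of the fatty acid arm and 3 of the cholesterol arm). These were the 4 genes called without it, with ACSS2, FASN, MVK, SC5D and STARD4.

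Leaving out each library gave between 388 and 728 genes (251 to 474 higher, 118 to 285 lower), and between 2 and 6 of the 32 (2 to 6 higher, 0 to 1 lower). The regulators had 1 to 2 calls, the fatty acid arm 1 to 3 and the cholesterol arm 0 to 2. Medians ranged from 0.030 to 0.22 for the regulators, 0.12 to 0.30 for the fatty acid arm and 0.043 to 0.13 for the cholesterol arm, and the gap between the arms from 0.073 to 0.18. Some counts of calls moved by over 1.5 times, or from 0, without NC replicate 1, without NC replicate 2 and without TYMP replicate 2. In these fits the lone library is assumed to vary like the other group, and the cause of each move was not tested. Across the fits that leave out 1 library, 11 genes that were not called with all libraries changed the sign of their log2 fold change: SCAP from -0.050 to 0.16, ACACA from -0.056 to 1.45, ELOVL5 from -0.0070 to 0.030, ACAT2 from -0.081 to 0.0055, PMVK from -0.35 to 0.16, MVD from -0.031 to 0.33, IDI1 from -0.055 to 0.16, TM7SF2 from -0.14 to 0.034, MSMO1 from -0.063 to 0.29, EBP from -0.16 to 0.23 and DHCR7 from -0.11 to 0.17.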
